A study of Mus musculus with 3 samples.

Results

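The genes described are 42 regulators of pre-mRNA splicing, of 26286 genes in the count tables: 10 SR proteins, 18 heterogeneous nuclear ribonucleoproteins (hnRNPs), the polypyrimidine tract binding genes Ptbp1 and Ptbp3, 4 SR-related genes, 4 genes of 3′ splice site recognition, and Mbnl1, Celf1, Elavl1 and Khdrbs1. They were chosen by name, and all 42 were found. Their levels were measured by RNA-seq in 3 libraries of bone marrow pre-B cells, which form 1 group with no second condition. The mice were CAG-rtTA3;TRE-GFP-shLuc.1309 bitransgenic animals, in which the broadly active CAG promoter drives a doxycycline-dependent transactivator and a TRE promoter drives GFP linked to a control short hairpin RNA against luciferase. All 3 libraries come from mice given doxycycline (Dox) for 3 days, so the hairpin and the drug are common to every value, and from cells sorted as GFP+B220+IgM–Kit–CD25+. The labels give neither the age of the mice nor whether a library is 1 animal or a pool.

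Splicing regulators bind pre-mRNA and influence which exons the spliceosome joins. SR proteins carry RNA recognition motifs and a domain rich in arginine and serine, and typically promote exon inclusion from exonic enhancers, while hnRNPs coat nascent transcripts and often repress the exons they bind. Their ratio is a classical determinant of alternative splicing, and many SR and hnRNP genes limit their own expression through unproductive splicing. In the B lineage, alternative processing sets, among other things, the membrane and secreted forms of immunoglobulin and the exons of CD45. The counts are per gene, so exon use and unproductive transcripts are not resolved here.

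Totals ranged from 12021576 to 32086649 counts, a 2.67-fold range with replicate 3 the deepest. The pre-B markers reported here were present, with Il2ra (CD25) at 89.3 ± 17.7 RPKM and Cd79a at 721, while Kit, excluded by the sort, was at 0.791 RPKM. RPKM is the read count scaled to gene length and library size, computed here from the deposited counts, and errors are SD over the 3 libraries. All 8 neutrophil markers were also above 1 RPKM, with a summed level of 1305 RPKM in replicate 1, 1564 in replicate 2 and 2317 in replicate 3. At or above 1 RPKM in every library were also 3 of 6 monocyte and macrophage markers, 2 of 6 erythroid markers and 1 of 8 T and NK cell markers (Klrb1c). None of 6 early progenitor markers reached that level in every library. Replicate 1 had 22609 Xist counts and 2 counts over 4 Y-linked genes, against 94 and 70 Xist counts and 5152 and 12547 Y-linked counts in replicates 2 and 3. By these genes replicate 1 is female and replicates 2 and 3 are male, so sex differs between the libraries of this group. The part of sex in the members' differences between libraries was not tested. Separately, 12 of 12 mitosis genes were highest in replicate 3 and lowest in replicate 2.

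The splicing regulators stood far above the middle of the transcriptome. Their median level was 6.80 ± 0.09 on the log2(RPKM + 0.5) scale, against 2.57 ± 0.02 over the 17423 genes with a count and 3.78 ± 0.01 over the 12147 genes kept for tests. The median member lay above 96.6% of the genes with a count. In every library 41 of 42 members were at or above 10 RPKM and 22 at or above 100 RPKM. Of all counts they took 1.66% in both replicates 1 and 2, and 1.75% in replicate 3. All 42 passed the filter on low counts.

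**Figure D1:**
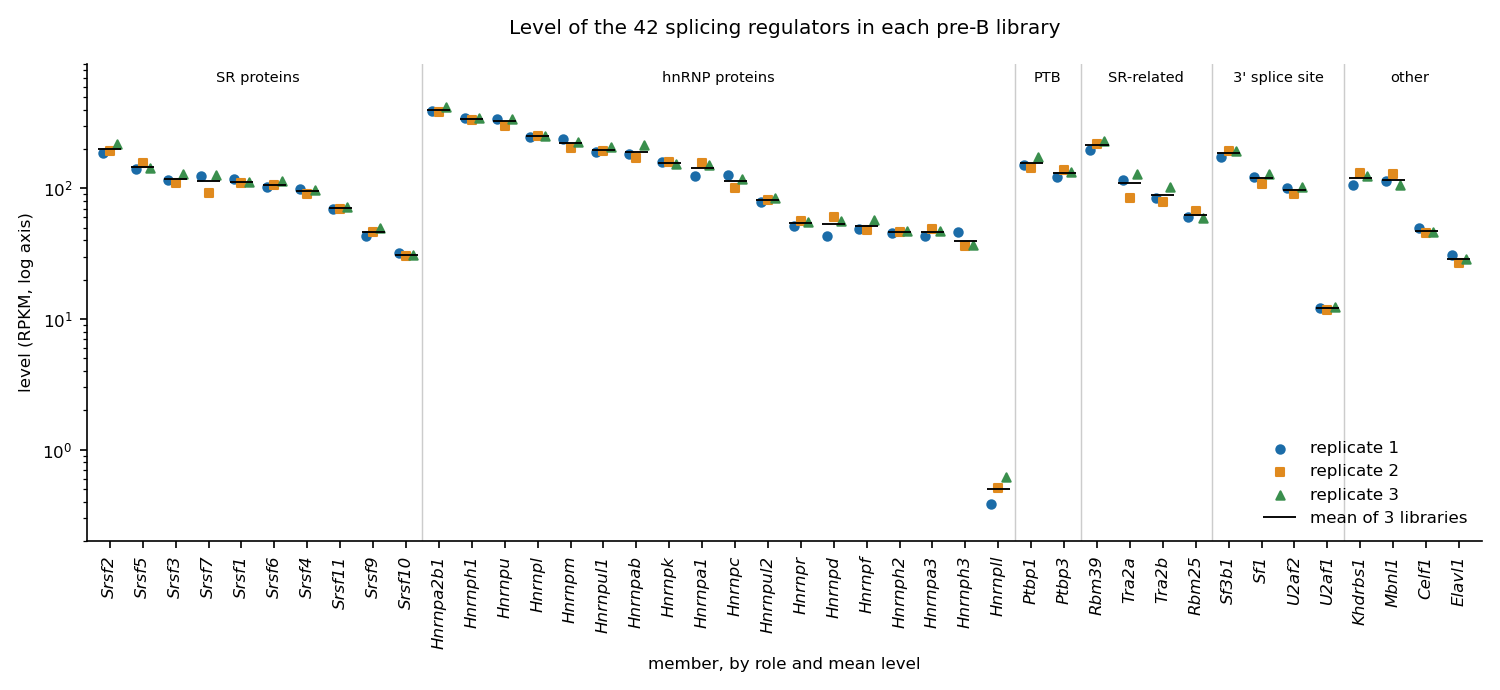
Level of each of the 42 splicing regulators in RPKM on a log axis, grouped by role and ordered by mean level; symbols are the 3 libraries and the bar is their mean. The spread between libraries is small beside the spread between genes, Hnrnpll (0.505 RPKM) and U2af1 (12.1 RPKM) lie below all others, and Hnrnpa2b1 (397 RPKM) is the highest.

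Upstream sequence was available for 37 of the 42 members, as 52 annotated starts in the RefSeq table of GRCm38.p6. Windows of 250 bases before each start were CpG-rich for 88.5% of the members' starts, against 30.8% of 32851 starts of all genes. CpG-rich here means GC above 50% and an observed over expected CpG ratio above 0.6. Searched on both strands, the CCAAT box (CCAAT) was in 51.9% of the members' windows and 33.8% of all, the core of the cyclic AMP response element (TGACG) in 44.2% and 17.8%, the ETS motif (CCGGAAG) in 17.3% and 6.9%, the YY1 motif (AAGATGG) in 3.8% and 4.5%, and TATAAA in 9.6% and 12.4%. These are shares of windows, several of which belong to 1 gene, and a match is not a measured site. The TGACG and CCGGAAG motifs contain CG themselves. The starts of all genes were not limited to genes with a count, and shares among genes of like level were not computed. Below are the windows of the highest member, the highest SR gene by RPKM and the lowest member that has one. They are read 5′ to 3′ on the gene's strand, with matches to these motifs in capitals.
Hnrnpa2b1, chr6:51469895-51470144, minus strand: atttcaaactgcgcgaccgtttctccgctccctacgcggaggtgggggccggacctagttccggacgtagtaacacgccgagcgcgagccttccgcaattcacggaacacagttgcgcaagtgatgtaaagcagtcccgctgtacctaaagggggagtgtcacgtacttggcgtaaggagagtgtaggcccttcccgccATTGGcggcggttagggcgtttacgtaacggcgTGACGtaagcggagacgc
Srsf2, chr11:116853095-116853344, minus strand: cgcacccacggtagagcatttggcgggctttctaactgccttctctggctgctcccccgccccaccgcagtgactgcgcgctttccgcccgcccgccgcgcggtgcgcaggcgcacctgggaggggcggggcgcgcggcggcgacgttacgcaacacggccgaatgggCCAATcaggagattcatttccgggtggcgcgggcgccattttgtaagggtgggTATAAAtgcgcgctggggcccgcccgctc
U2af1, chr17:31658765-31659014, minus strand: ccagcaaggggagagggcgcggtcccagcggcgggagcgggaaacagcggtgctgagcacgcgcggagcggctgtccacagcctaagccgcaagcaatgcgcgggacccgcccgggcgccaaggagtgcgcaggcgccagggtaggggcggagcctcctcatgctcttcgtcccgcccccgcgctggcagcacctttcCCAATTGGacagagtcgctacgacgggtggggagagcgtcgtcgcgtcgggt
The windows of Hnrnpa2b1 (GC 59.6%), Srsf2 (69.6%) and U2af1 (71.6%) are all CpG-rich and all hold a CCAAT match, while the levels of these genes were 397, 200 and 12.1 RPKM.

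Among the 10 SR proteins, Srsf2, which binds exonic enhancers and acts from early spliceosome assembly on, was the highest per gene length. Srsf2 stood at 187 RPKM in replicate 1, 193 in replicate 2 and 220 in replicate 3. Without length scaling, in counts scaled to library size only (CPM), Srsf1 was above it, with means of 592 and 380 CPM. By RPKM Srsf5 followed Srsf2 at 147 ± 8.67, and the next 4 genes were close together. They were Srsf3 (118 RPKM), a small SR protein that also serves as an mRNA export adaptor, its close relative Srsf7 (114.5 RPKM), the founding member Srsf1 (113 RPKM) and Srsf6 (107 RPKM), whose means differed by less than the SD of Srsf7 (19.8 RPKM). Srsf4 stood at 95.6 RPKM. Srsf11 (70.2 RPKM), Srsf9 (46.6 RPKM) and Srsf10 (31.1 ± 0.96 RPKM), an SR protein that represses splicing when dephosphorylated, were the lowest. No SR gene was under 30 RPKM in any library.

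The Srsf7 level varied most within the family. It was 125 RPKM in replicate 1, 91.7 in replicate 2 and 127 in replicate 3, so that replicate 2 lay alone below the others. Srsf3 was at 116, 110 and 128 RPKM in replicates 1, 2 and 3. The difference between Srsf3 and Srsf7 therefore changed sign between libraries, with a mean of 0.06 ± 0.18 on the log2 scale.

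By RPKM, without the counts of copies, the hnRNPs held the top 5 places of all 42 members. Without length scaling, Sf3b1 (1162 CPM) and Ptbp3 (900.5 CPM) ranked 3 and 4, above Hnrnph1 (758.5 CPM). Hnrnpa2b1, which encodes the A2 and B1 proteins that bind RNA and sort it for transport, was at 391 RPKM in replicate 1, 381 in replicate 2 and 420 in replicate 3, above 99.3% of all genes with a count. Hnrnph1, a binder of G-rich splicing elements, averaged 341 ± 6.35 RPKM and Hnrnpu, a nuclear scaffold protein that binds RNA and chromatin, 328 ± 21.6 RPKM, and these neighbours differed by less than the SD of Hnrnpu. Hnrnpl, which binds CA repeats, was at 246, 253 and 252 RPKM in replicates 1, 2 and 3, and Hnrnpm averaged 223 ± 16.9 RPKM. Hnrnpul1 (196), Hnrnpab (190), Hnrnpk (158), Hnrnpa1 (144) and Hnrnpc (115), the last a core protein that measures transcript length, were also above 100 RPKM in each library. Hnrnpul2 was at 81.2 RPKM, and a lower group of Hnrnpr, Hnrnpd, Hnrnpf, Hnrnph2, Hnrnpa3 and Hnrnph3 lay between 39.8 and 54.4 RPKM.

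Hnrnpll was the exception in the family. It is the regulator known for skipping the variable exons of CD45 in activated T cells and for the switch to secreted immunoglobulin in plasma cells. Replicates 1, 2 and 3 held 15, 19 and 62 of its counts, which is 0.388, 0.509 and 0.618 RPKM, so that 28.8% of the genes with a count were lower. Its relative Hnrnpl was 634, 497 and 407 times higher per length in the same 3 libraries. On the log2(RPKM + 0.5) scale the difference was 7.97 ± 0.15, which understates these ratios since the pseudocount is close to the Hnrnpll level; it was 8.71 with a pseudocount of 0.1 and 7.39 with 1. Ptprc, the gene of CD45, was itself at 107 RPKM.

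Ptbp1 and Ptbp3, repressors that bind pyrimidine tracts, were both abundant. Ptbp1 was at 150 RPKM in replicate 1, 144 in replicate 2 and 175 in replicate 3, and Ptbp3 at 121, 137 and 133 RPKM. Ptbp1 was thus above Ptbp3 in each library, by 0.25 ± 0.17 on the log2 scale, a difference close to its own spread. Ptbp2, the paralog typical of neurons, was listed at 16.2, 15.8 and 10.8 RPKM, and the ratio of Ptbp1 to Ptbp2 was 9.28, 9.11 and 16.2.

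Of the SR-related genes, Rbm39, a partner of U2AF at polypyrimidine tracts, was the highest, at 196, 219 and 230 RPKM in replicates 1, 2 and 3. Tra2a, a splicing activator with RS domains on both sides of its RNA recognition motif, was at 117, 84.6 and 129 RPKM. Tra2b, its paralog, was at 84.2, 78.5 and 102 RPKM. Tra2a was above Tra2b in all 3 libraries, so the difference of Tra2b minus Tra2a was −0.30 ± 0.18 on the log2 scale. Both were lowest in replicate 2 and highest in replicate 3. Rbm25 was lower, at 62.5 ± 4.08 RPKM.

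The 4 genes that act at the 3′ splice site were not even in level. Sf3b1, the subunit that holds U2 snRNP at the branch point, was at 174, 194 and 195 RPKM in replicates 1, 2 and 3. Sf1, which recognises the branch point first, averaged 119 ± 10.8 RPKM, and U2af2, the U2AF subunit that binds the pyrimidine tract, 97.6 ± 6.12 RPKM. U2af1, the partner subunit that reads the AG at the intron end, had counts of 148, 137 and 385, or 12.2, 11.7 and 12.3 RPKM. U2af2 was 8.07 ± 0.31 times as high per length as U2af1, its partner in a heterodimer. In the GRCm38 transcripts, 25.8% of the 31-base words of U2af1 also occur in transcripts of other genes, and it has 3 annotated pseudogene copies, none of which was matched to a row of the table. Such sharing is not particular to U2af1. It was 21.4% for U2af2, also with 3 copies, and 66.2% for Hnrnpf, with 7 copies and a level of 51.4 RPKM. How the counting treated reads that match several places is not stated in the labels, and the part of such reads in the low U2af1 level was not tested.

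Of the remaining 4 members, Khdrbs1 (Sam68), a signal-responsive STAR protein, was at 121 ± 13.6 RPKM, and Mbnl1, a muscleblind protein, at 116 ± 11.2 RPKM. Celf1 averaged 47.2 ± 1.97 RPKM and Elavl1 (HuR), which stabilises AU-rich mRNAs, 28.8 ± 1.83 RPKM.

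The 20 pairs of related genes set the members against their nearest relatives, the first gene minus the second on the log2(RPKM + 0.5) scale. In 17 pairs the first gene was higher in each library, in 1 (Tra2b and Tra2a) the second, and in 2 the sign was mixed (Srsf3 and Srsf7, Celf1 and Celf2). Which gene comes first was set by choice, in pairs chosen with earlier results known. The 17 against 1 is therefore no result, and only the agreement of sign between libraries, in 18 pairs, is read. Hnrnpa2b1 exceeded Hnrnpa1 by 1.47 ± 0.18 and Hnrnpa3 by 3.09 ± 0.13. Hnrnph1 exceeded Hnrnph2 by 2.86 ± 0.03 and Hnrnpul1 exceeded Hnrnpul2 by 1.27 ± 0.02. Hnrnpab exceeded Hnrnpd by 1.83 ± 0.31. Srsf1 exceeded Srsf9 by 1.26 ± 0.15, Srsf5 exceeded Srsf6 by 0.45 ± 0.11 and Srsf6 exceeded Srsf4 by 0.16 ± 0.11. Hnrnpr exceeded its paralog Syncrip by 0.88 ± 0.05, and Hnrnpf exceeded Hnrnph3 by 0.37 ± 0.28. Gene length is the same in each library, so agreement of sign does not show that a direction holds without length scaling. In CPM some directions reversed, with Srsf5 minus Srsf6 at −0.64 and Hnrnpr minus Syncrip at −0.56.

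Paralogs listed as tissue-restricted were in 4 of 5 pairs well below the member. Khdrbs1 was 95.5, 187 and 92.0 times as high as Khdrbs3 in replicates 1, 2 and 3. Elavl2 had no counts, and against a floor of 3 counts per library Elavl1 was at least 491-fold higher. Mbnl1 was 6.20 ± 0.49 times as high as Mbnl2. Celf1 and Celf2 had overlapping levels, at 49.4, 45.5 and 46.7 RPKM for Celf1 and 40.5, 45.5 and 41.0 RPKM for Celf2. With 3 libraries the exact two-sided sign-flip test cannot give p under 0.25, so none of the 20 differences could pass 0.05 by that test (adjusted p from 0.278 to 0.75), whatever their size beside their SD.

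**Figure D2:**
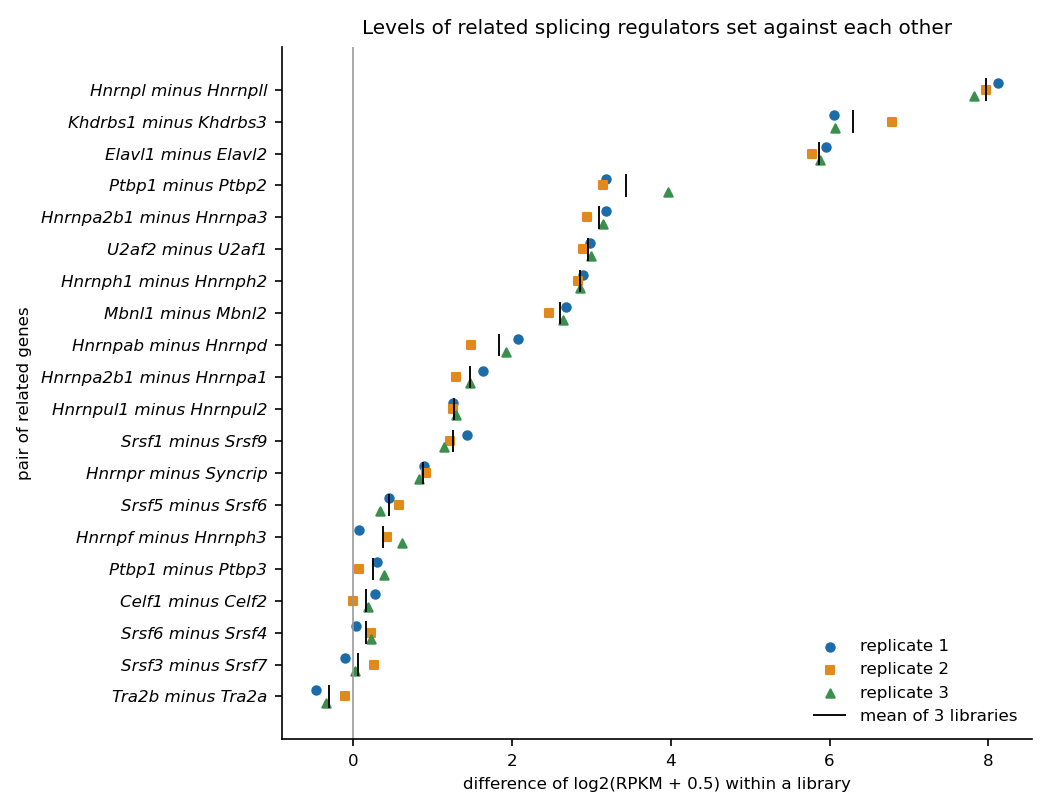
Difference of log2(RPKM + 0.5) within each library for 20 pairs of related genes, first gene minus second; symbols are libraries and the bar is their mean. Hnrnpl minus Hnrnpll (7.97) is the largest on this scale and only Tra2b minus Tra2a (−0.30) is negative on average. Hnrnpll is low and Elavl2 had no counts, so both values depend on the scale, and with CPM Elavl1 minus Elavl2 (8.44) is above Hnrnpl minus Hnrnpll (8.03).

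Other genes of the splicing pathway, taken from lists by function, were also well expressed. Counts beyond counting noise below are from a chi-square test of the 3 libraries against a Poisson expectation, adjusted by Benjamini-Hochberg over 12147 genes, of which 54.6% were called. The members' median of 6.80 ± 0.09 stood above that of the 29 core snRNP proteins, 5.54 ± 0.07 on the log2 scale, among which Snrpb (195 RPKM), Snrnp70 (167) and Sf3b2 (152) led, Prpf4 (10.4) was the lowest, and 15 of 29 varied beyond counting noise. The 9 genes of SR protein kinases and their import had a median of 5.55 ± 0.06, with Clk1 (107 RPKM) highest and Srpk2 (12.8) lowest, and 6 of 9 were called. The 18 other widely expressed regulators had a median of 6.61 ± 0.02, with the helicase Ddx5 (418 RPKM) above every member, and 16 of 18 were called. The 10 nonsense-mediated decay genes, which degrade unproductive SR and hnRNP transcripts, had a median of 5.02 ± 0.10, with Upf1 (51.2 RPKM) highest, and 7 of 10 were called. None of these genes passed the test of spread above genes of like abundance or the comparison by CASAVA version described below.

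The tissue-restricted regulators were mostly low or without counts. Of 23, 10 had no counts, among them Rbfox1, Nova1 and Srrm4, regulators known from neurons, and only 4 were at or above 1 RPKM in every library: Celf2 (42.4 RPKM), Mbnl2 (18.9), Ptbp2 (14.3) and Mbnl3 (12.2). A count of 0 allows up to 3 counts per library. These 4 were within the range of the lower members, from U2af1 to Celf1.

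**Figure D3:**
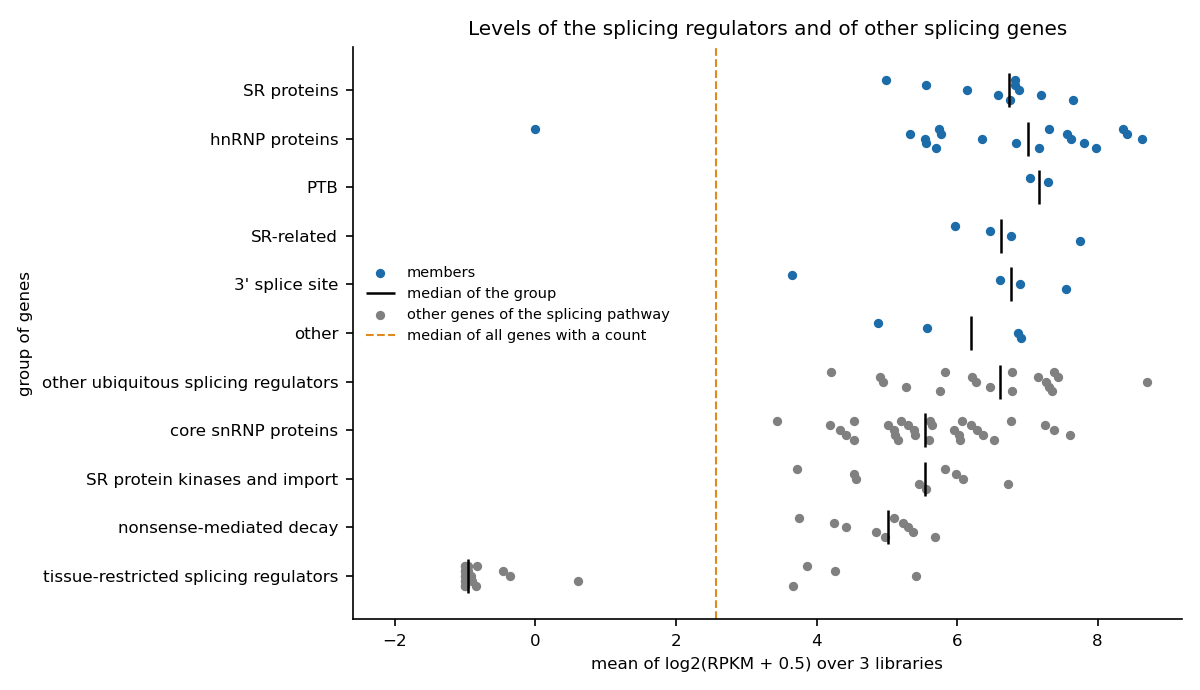
Mean log2(RPKM + 0.5) of each gene over 3 libraries, with the members (blue, by role) above other groups of splicing genes (grey); bars are group medians and the dashed line is the median of all genes with a count (2.57). Members other than Hnrnpll lie to the right of that line, as do the core snRNP proteins (median 5.54), while most tissue-restricted regulators lie near the lower limit set by the pseudocount.

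Some member levels are uncertain because processed copies that share sequence with the members exist. Of the 42 members, 17 have at least 1 annotated pseudogene that shares 100 or more words of 31 bases with their transcripts in GENCODE M21 (80 copies in all, 36 of them of Hnrnpa3), and 6 copies of 4 members have a row in the table and counts. The windows below, 90 bases of coding sequence of Srsf5 and Hnrnpk and the same stretch of a copy of each in GRCm38, set the sequences of members and copies side by side. They are read 5′ to 3′ on the strand of the transcript, and capitals in a copy mark bases that differ from the member.
Srsf5, chr12:80946595-80946684, plus strand: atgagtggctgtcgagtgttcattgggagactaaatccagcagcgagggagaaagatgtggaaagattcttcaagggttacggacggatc
Gm12966, chr4:129899093-129899182, plus strand: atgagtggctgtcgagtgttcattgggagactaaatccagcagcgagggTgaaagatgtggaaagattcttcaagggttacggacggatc
Hnrnpk, chr13:58395192-58395281, minus strand: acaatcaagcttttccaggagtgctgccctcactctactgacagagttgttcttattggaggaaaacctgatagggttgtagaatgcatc
Gm4130, chr13:91262205-91262294, minus strand: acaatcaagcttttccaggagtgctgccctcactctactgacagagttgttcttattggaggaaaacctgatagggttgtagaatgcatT
Each of these copies has 1 difference from its member in the window, which was chosen to hold a difference but as few as possible. The windows thus do not measure how alike the whole transcripts are. Over its whole transcript Gm12966 shares 554 of 780 words with Srsf5, and Gm4130 shares 453 of 940 with Hnrnpk. Over its whole transcript Gm10052, a copy of Hnrnpa1, shares 930 of 930 words with Hnrnpa1.

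The copies of 3 members carried counts comparable with those of the member. Gm10052 had 1603, 1868 and 4968 counts in replicates 1, 2 and 3, which is 53.9%, 52.2% and 53.2% of the counts of Hnrnpa1 in the same libraries. Hnrnpa1l2-ps2 had 22.6%, 21.1% and 22.3% of them. Gm12966 had 77.3%, 75.3% and 76.4% of the counts of Srsf5, and Gm4130 had 64.2%, 62.7% and 66.2% of those of Hnrnpk. These shares, which as ratios within a library do not depend on depth, differed little between libraries. With the counts of its copies added, Hnrnpa1 was at 255 ± 28.9 RPKM in place of 144, Srsf5 at 259 in place of 147, and Hnrnpk at 259 in place of 158. Srsf5 then lay above Srsf2 (200 RPKM), the highest SR gene by RPKM without copies. Srsf5 also lay above Hnrnpl (250.2 RPKM) and Hnrnpm (223 RPKM), so that the top 5 members by RPKM then included an SR gene. Whether these reads came from the copies or from the members was not tested.

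Gm5643, an X-linked copy of Hnrnpa1, had 439 counts in replicate 3, against 35 and 34 in replicates 1 and 2, or 13.6 CPM against 2.82 and 2.84 CPM (counts scaled to library size). It was named with these counts in view. It was 1 of the 9 genes, 0.0741% of the 12147 tested, that passed the edgeR quasi-likelihood comparison of replicate 3 with replicates 1 and 2, a comparison of 1 library with 2 (log2 difference 2.27, SE 0.25, adjusted p = 0.0448; adjusted p from 0.0033 to 0.305 over 4 alternatives added after seeing the data, and above 0.05 only when all genes with a count were kept). Gm11847, a copy of Hnrnpa3, had 993 counts in replicate 3, against 204 and 168 in replicates 1 and 2, and did not pass (log2 difference 1.02, SE 0.18, adjusted p = 0.174). For the members themselves the log2 difference of replicate 3 was 0.11 (SE 0.16) for Hnrnpa1 and 0.02 (SE 0.14) for Hnrnpa3, and neither passed.

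**Figure D4:**
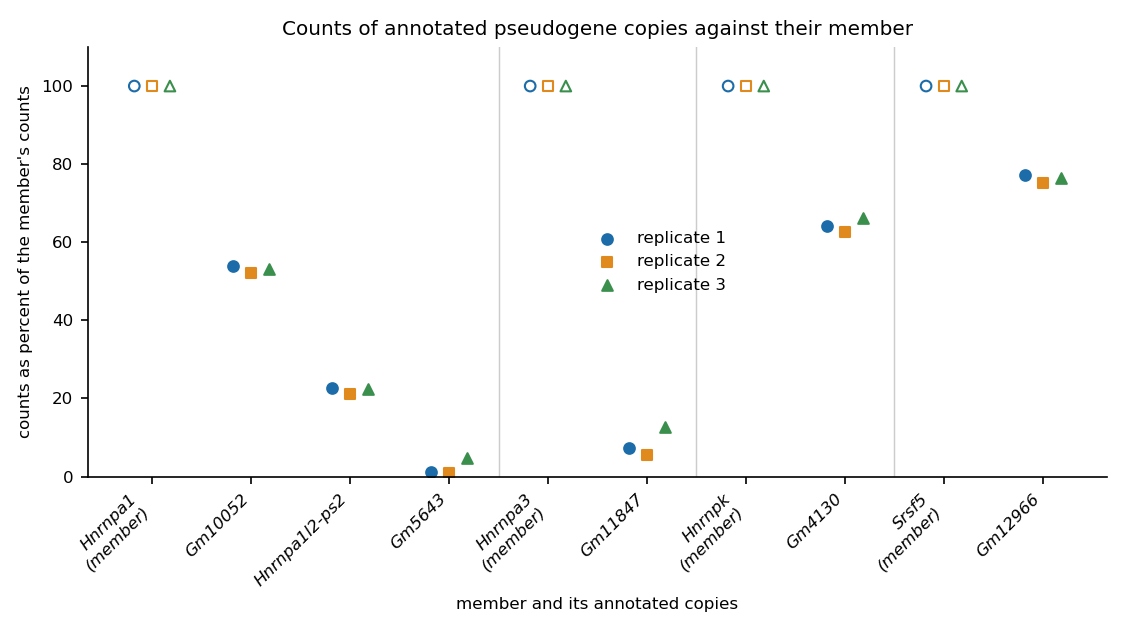
Counts of 6 annotated pseudogene copies as a percentage of the counts of their member in the same library; open symbols at 100% are the members and filled symbols the copies, by replicate. Gm12966 (75.3% to 77.3% of Srsf5) and Gm4130 (62.7% to 66.2% of Hnrnpk) stay level over the libraries, while Gm5643 and Gm11847 are higher in replicate 3 (4.71% and 12.6%) than in replicates 1 and 2.

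Between libraries most members varied by a small amount that was larger than counting noise. Their coefficients of variation had a median of 6.6%, from 1.47% (Hnrnph2) to 22.9% (Hnrnpll), and 31 of 42 were under 10%. By the chi-square test, 36 of 42 members varied beyond counting noise, against 54.6% of all genes tested; at these depths the test detects small changes, and among genes with at least 3000 counts in all, a limit chosen after seeing the data, 36 of 40 members and 73.5% of 4487 genes were called. That limit is a minimum and does not match genes by depth, so whether members were called more often at like depth was not tested. The 6 members not called were Celf1, Srsf10, Hnrnpl, Hnrnpll, Hnrnph2 and U2af1. Among those called, the highest library was 1.03 to 1.53 times the lowest, with a median of 1.15. Between replicates 1 and 2 alone, the libraries of CASAVA version 1.8.2, 24 members and 25.7% of 12217 genes were called; without replicate 1 there were 26 (43.3% of 12918 genes) and without replicate 2 also 26 (32.9% of 12954).

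The calls of 11 members (Elavl1, Hnrnpa2b1, Hnrnpab, Hnrnpc, Hnrnpd, Hnrnpm, Khdrbs1, Mbnl1, Rbm39, Sf1 and Tra2a) were kept without each library in turn, while 25 lost theirs without some library. Tra2a had the widest ratio among those called, 1.53 (adjusted p = 1.03e-57 by the chi-square test). Hnrnpd, an AU-rich element binding protein also known as AUF1, was at 43.1, 60.8 and 56.3 RPKM in replicates 1, 2 and 3, with a ratio of 1.41 and its lowest level in replicate 1. Srsf7, at 1.39, was lowest in replicate 2, and without that library its adjusted p was 0.524. Hnrnph3, at 46.7, 35.9 and 36.85 RPKM in replicates 1, 2 and 3, was highest in replicate 1, and without that library its adjusted p was 0.577.

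The order of the libraries was not the same for all members. Among the 36 called, 11 were highest in replicate 3 and lowest in replicate 2 (among them Hnrnpa2b1, Hnrnpu, Ptbp1, Srsf3, Srsf7, Tra2a and Tra2b) and 8 were highest in replicate 3 and lowest in replicate 1 (among them Srsf2, Srsf6, Rbm39 and Sf3b1). Another 7 were highest in replicate 2 and lowest in replicate 1 (among them Hnrnpa1, Hnrnpa3, Hnrnpd, Srsf5 and Khdrbs1), 7 were highest in replicate 1 and lowest in replicate 2 (among them Srsf1, Hnrnpc, Hnrnph1 and Hnrnpm), and 3 were highest in replicate 2 and lowest in replicate 3 (Hnrnpk, Rbm25 and Mbnl1). Mbnl1 was at 114 RPKM in replicate 1, 128 in replicate 2 and 106 in replicate 3. Over all 42 members, 22 were highest in replicate 3 and 3 lowest there, against 35.1% and 36.1% of all genes tested. Of the 29 core snRNP proteins, 20 were highest and 5 lowest there, and of the 18 other widely expressed regulators, 6 and 4. The orders of the members describe the 3 libraries, and 25 of the 36 calls behind them were lost without some library.

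**Figure D5:**
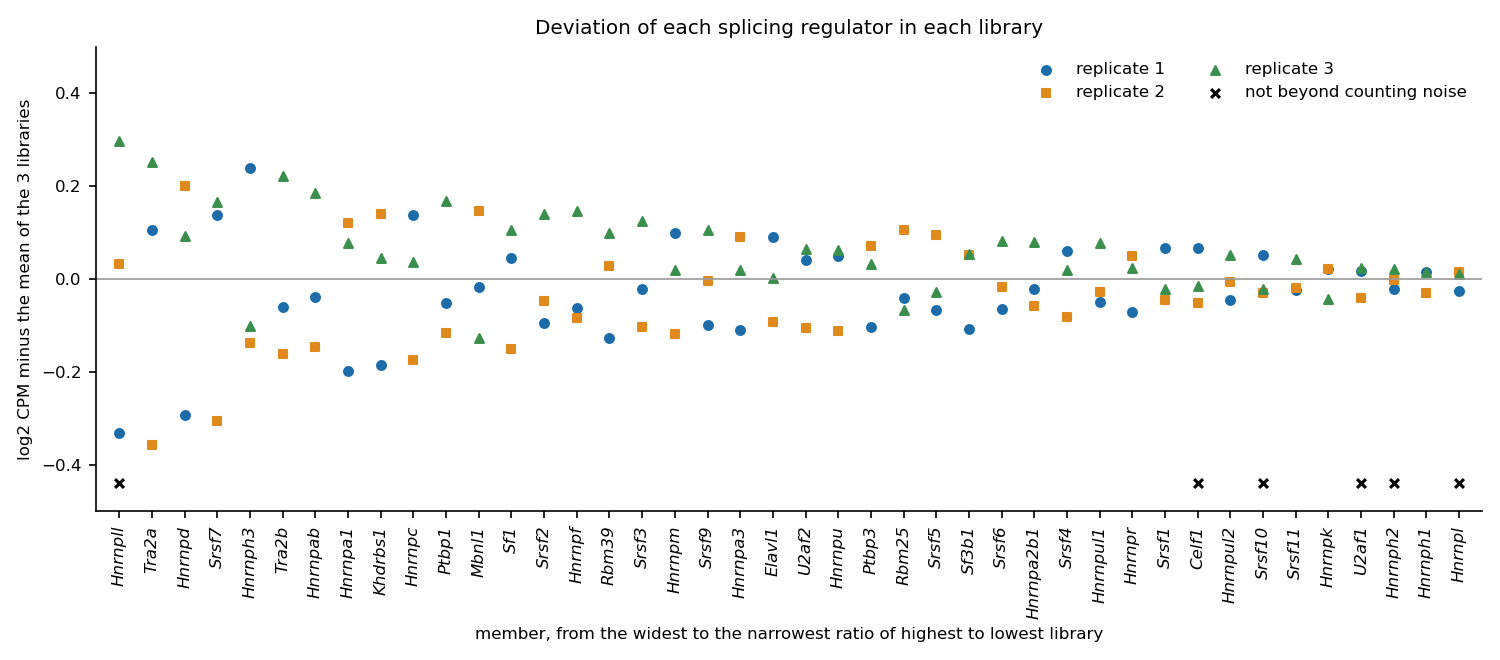
Deviation of each member in each library from its own mean over the 3 libraries, in log2 CPM, ordered from the widest to the narrowest ratio of highest to lowest library; crosses mark the 6 members not called beyond counting noise. Deviations of Hnrnpll, Tra2a, Hnrnpd and Srsf7 are the widest, and replicate 3 is the highest library in 22 of 42 members.

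The spread of each member was then set against that of genes of like abundance. In an intercept-only edgeR quasi-likelihood fit, 0 of 42 members passed the test of spread (2 of 12147 genes did, 0.0165%), and the smallest adjusted p of a member was 0.909. Before adjustment, 2 members were under 0.05, Tra2a (adjusted p = 0.909) and Srsf7 (adjusted p = 0.941), as were 644 genes in all (5.3%), and a robust edgeR fit also called 0 members.

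The only technical split in the labels is the version of CASAVA, the software that turned the sequencer's output into reads: 1.8.0 for replicate 3 and 1.8.2 for replicates 1 and 2. It cannot be told apart from any other difference of replicate 3. No member passed the comparison of replicate 3 with replicates 1 and 2 by edgeR's quasi-likelihood test or by DESeq2, which called 9 (0.0741%) and 36 of all genes. Before adjustment, 1 member was under 0.05, Tra2b (log2 difference 0.33, SE 0.12, edgeR adjusted p = 0.457), as were 1169 genes in all (9.62%). The members' log2 differences were small and mostly positive: 34 were above 0 and 8 below, that is 81.0% above 0 against 48.7% of all genes tested, with a median of 0.071 against −0.007. Neutrophil markers as a group moved with replicate 3 by more, with a median deviation of 0.401 in log2 CPM there. It was −0.311 and −0.114 in replicates 1 and 2. Of these 8 markers, 6 were highest in replicate 3, while Mpo and Elane were highest in replicate 1. Immediate early and heat shock genes (0.524, against −0.115 and −0.453) and mitosis genes (0.222, against 0.046 and −0.28) also moved with replicate 3 by more. Pre-B cell markers had a median deviation of −0.079 in replicate 3, against −0.025 and 0.099. Of these 11 markers, 7 were lowest and 2 highest in replicate 3. For the members these medians were 0.048 in replicate 3, against −0.025 and −0.031. The lean to replicate 3 was not particular to the members, since the core snRNP proteins had 0.061 there. Other splicing groups did not all share it. The median in replicate 3 was −0.003 for the other widely expressed regulators, −0.023 for SR protein kinases and import, and 0.014 for nonsense-mediated decay. In sorted bulk samples a change in the share of a cell type and a change in RNA per cell cannot be told apart, and the part of these markers in the members' differences was not tested.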

How the data were processed

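RNA-seq was analysed for 3 libraries of 1 group of sorted mouse pre-B cells, numbered as in the sample titles. The authors deposited raw counts per Entrez gene with a gene length. Reads were summarised with featureCounts on mm9, per the submitters' processing notes; for aligner, annotation, read length, strand setting and the handling of reads that align to several places, nothing is given in the sources used here. Counts of pseudogenes, paralogs and overlapping genes are therefore uncertain. RNA came from a column kit and libraries from standard Illumina protocols, per the labels. The labels do not name separate animals, so p-values measure only the spread between these libraries.

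Symbols came from the RefSeq table of GRCm38.p6 by Entrez identifier (24176 of 26286 matched), for names only. Words of 31 bases were compared between GENCODE M21 transcripts (GRCm38), and sequences are printed in that build. Counts were scaled by TMM (factors 1.0003, 0.9969 and 1.0028) with edgeR 4.0.16 and limma 3.58.1 (R 4.3.3), and DESeq2 1.42.0 served as an alternative. RPKM values are the deposited counts divided by gene length and scaled library size; levels are log2(RPKM + 0.5). filterByExpr (minimum count 10, minimum total 15) kept 12147 genes, and p-values were adjusted over all of them by Benjamini-Hochberg at 0.05. Spread between libraries was set against Poisson noise (chi-square) and against the prior quasi-dispersion (F test, prior degrees of freedom 5.92); the CASAVA comparison used glmQLFTest. The tests were tried on simulated data first. A count of 0 allows 3 counts, which covers counting error only.

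The members, lists, pairs and tests were chosen with earlier results of these data known. All members may be named, and of other lists the 3 highest and 2 lowest genes, all genes of lists of at most 11, the second gene of each pair, genes past a test, and annotated copies of members with the highest counts; Gm5643, Rbfox1, Nova1, Srrm4, Mbnl3 and the sex-linked genes were named with their values in view. Alternatives were other scalings, no filter, other pseudocounts, CPM and TPM, a robust fit, thinning of replicate 3, and leaving out each replicate. Protein sequences were not used here. Figures were drawn with matplotlib 3.10.9.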

Additional observations from a re-analysis of the deposited data

How the results depend on the processing

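The number of members beyond counting noise (36) was 35 with DESeq2 size factors, 34 with unscaled library totals, 35 with all genes with a count and 32 after replicate 3 was thinned to the total of replicate 2. It ranged from 24 to 26 when a replicate was left out. Hnrnpk lost its call under each of these 4 alternatives, Hnrnpr under unscaled totals and thinning, and Srsf9 and Srsf11 under thinning. No member passed the spread test or the CASAVA comparison under any alternative run; the CASAVA comparison without replicate 1 or 2 could not be fitted, since 1 library against 1 leaves no residual degrees of freedom. The members' median level (6.80) was 8.23 with CPM and 8.04 with TPM, which are other units, and 6.77 to 6.86 when a replicate was left out. Between 18 and 19 of the 20 pairs had 1 sign under the alternatives. Without scaling to gene length (CPM), 4 differences changed sign: Srsf5 minus Srsf6 (−0.64), Hnrnpr minus Syncrip (−0.56), Ptbp1 minus Ptbp3 (−0.98) and Celf1 minus Celf2 (−1.87). Srsf3 minus Srsf7 ranged from −0.04 to 0.14 when a replicate was left out and was negative without replicate 2. With copies' counts added, as tried after seeing the data, the levels of Hnrnpa1, Hnrnpa3, Hnrnpk and Srsf5 were 1.77, 1.08, 1.64 and 1.76 times those without them, and Hnrnpa2b1 minus Hnrnpa1 was 0.64 in place of 1.47. Depth limits mainly Hnrnpll, with 15 to 62 counts, and the tests rest on 3 libraries.
No paired analysis was possible because all libraries belong to 1 group.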
